A study of Mus musculus with 20 samples.

Results

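The urea cycle of the mouse liver was described here by 8 genes, which were chosen by symbol as the rows Nags, Glud1, Cps1, Slc25a15, Otc, Slc25a13, Ass1 and Asl of a table of 45306 genes. All 8 were in the table and passed the filter on low counts, which left 15616 genes for testing. Liver RNA came from 20 mice, each with a library of its own, and 5 mice made up each of the 4 groups. Control mice were C57BL/6 and were housed at 24 °C, and CE (cold exposure) mice of the same strain were placed at 4 °C for 3 h per day over 3 weeks. Sirt2-/- mice were made on the same background by targeting exons of Sirt2 in fertilized eggs, so that the targeting was not limited to hepatocytes, and Sirt2-/-/CE mice combined the knockout with the cold schedule. The mice were 5 weeks old at grouping according to the labels, and no other allele or agent is given for any group. The design asks how cold, loss of Sirt2 and their combination relate to expression in the liver.

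Ammonia released in the liver, in part by glutamate dehydrogenase (Glud1), enters the cycle when carbamoyl phosphate synthetase (Cps1) joins it to bicarbonate in the mitochondrion. Cps1 works only with N-acetylglutamate, which Nags makes. Ornithine transcarbamylase (Otc) forms citrulline from carbamoyl phosphate and ornithine, and the carrier Slc25a15 brings ornithine in and takes citrulline out. In the cytosol, Ass1 joins citrulline to the aspartate that the carrier Slc25a13 exports, Asl splits the product into arginine and fumarate, and the cycle closes with the release of urea and the return of ornithine. The cycle is best known from hepatocytes around the portal vein, and its enzymes usually respond to protein intake, glucagon and glucocorticoids.

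One sequence matters for reading these genes. Gm5424, a processed pseudogene on chromosome 10, repeats the coding sequence of Ass1 over 1240 aligned bases with 99.5% identity and 6 mismatches, and the longest stretch shared without a mismatch is 398 bases. A read from such a stretch fits both places equally well. The following 120 bases, in GRCm38, are bases 522 to 641 of transcript Ass1-201 and the aligned stretch of Gm5424 at chr10:62071442-62071561 on the forward strand, with the bases that differ in capitals.
Ass1: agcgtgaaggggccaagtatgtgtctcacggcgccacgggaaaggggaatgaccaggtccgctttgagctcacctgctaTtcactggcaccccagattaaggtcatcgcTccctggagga
Gm5424: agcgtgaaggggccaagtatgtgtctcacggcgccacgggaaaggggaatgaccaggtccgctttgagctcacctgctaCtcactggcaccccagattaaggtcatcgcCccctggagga
The stretches differ by T601C and T631C, counted from the first base of the transcript, with the base of Ass1 first. Gm5424 held 14.83% to 19.84% of the counts of the pair in the 20 mice, with a median of 15.74% in Control, 15.86% in CE, 16.01% in Sirt2-/- and 16.13% in Sirt2-/-/CE. How the authors assigned reads that match several places is not given in the sources used here, so the level of Ass1 is uncertain by an amount that these values do not bound. With the counts of Gm5424 added to Ass1, an alternative chosen after the data were seen, no urea cycle gene passed the test in any comparison.

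The remaining genes raised smaller questions of counting. Nags shares 443 exon bases with the antisense gene Gm11586, which held 0.126% to 1.18% of the counts of that pair. Parts of Glud1 are matched at 97.6% identity by Gm43444, over 287 aligned bases, and by Glud-ps, over 656. Neither is a row of the table. Cps1, Otc, Asl, Slc25a15 and Slc25a13 had no other annotated gene that matched at 95% identity over 150 or more bases.

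The libraries held 35499796 to 53917339 counts per mouse, and the median rank correlation of a library with the others ran from 0.943 in Sirt2-/- replicate 14 and Sirt2-/-/CE replicate 16 to 0.973. Sirt2 was at 22.9, 21.0, 21.5, 20.1 and 21.0 FPKM in Control and at 9.32, 11.9, 14.03, 15.3 and 10.002 FPKM in Sirt2-/- mice. These groups did not overlap, and the ratio of counts was 0.519 (log2 fold change -0.94 ± 0.15 SE, edgeR's quasi-likelihood test, Benjamini-Hochberg adjusted p = 0.0145), so RNA of the gene was lower but not absent in the knockouts. The study targeted only some exons and reports by immunoblot that the protein was absent from knockout liver. Counts here cover the whole gene and do not measure the protein. Markers of hepatocytes were present in all libraries, with 9 of 9 above 1 FPKM on average, and markers of skeletal muscle and kidney tubule were at or near 0, with 0 of 4 above 1 FPKM in each list. Other lists were not at 0, since the summed level ran from 179 to 1033 FPKM for 5 erythrocyte markers and from 11.3 to 70.3 FPKM for 4 enterocyte markers. For 6 markers of exocrine pancreas it ran from 0.192 to 8.1 FPKM. Only 1 enterocyte marker and 1 marker of exocrine pancreas were above 1 FPKM on average. The summed level of 8 Kupffer cell and leukocyte markers, 7 of them in the table, ran from 37.7 to 131 FPKM in Control, 33.9 to 153 in CE, 95.1 to 158 in Sirt2-/- and 116 to 159 in Sirt2-/-/CE mice. The summed level of 5 markers of the sinusoidal endothelium had medians of 42.4, 28.2, 68.9 and 69.5 FPKM in Control, CE, Sirt2-/- and Sirt2-/-/CE mice. That of 5 cholangiocyte markers, only 1 of them above 1 FPKM on average, had medians of 30.2, 29.1, 21.7 and 20.5 FPKM in the same order. The part of these cells in the differences between groups was not tested. In bulk liver, fewer cells of a type and less RNA per cell cannot be told apart.

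The 8 genes spanned a wide range of abundance in the liver. In FPKM, a read count per gene length and depth, the mean over the 20 mice was 1571 for Ass1, 687 for Cps1, 345 for Asl, 263 for Glud1, 167 for Otc, 98.7 for Slc25a15, 71.9 for Slc25a13 and 37.0 for Nags. The enzymes therefore stood above the 2 carriers and the enzyme that makes the activator. Ass1 was above Cps1 in 20 of 20 mice, Glud1 above Otc in 20, Otc above Slc25a15 in 20, and Slc25a13 above Nags in 20. Other neighbouring pairs were less firmly ordered, since Slc25a15 exceeded Slc25a13 in 17 mice and Asl exceeded Glud1 in 14, while Cps1 exceeded Asl in 19. Together the 8 genes took 0.664% to 1.15% of the counts of a mouse.

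No urea cycle gene passed the test in any comparison. The test was edgeR's quasi-likelihood F test on the deposited counts of all 20 mice, and a gene was called at a Benjamini-Hochberg adjusted p under 0.05 over the 15616 genes. For CE against Control, 0 of 8 urea cycle genes were called, against 0.0064% of all genes. For Sirt2-/- against Control the count was 0 of 8, against 0.89% of all genes, the most of any comparison. For Sirt2-/-/CE it was 0 of 8 against Sirt2-/- and 0 of 8 against CE, with 0% and 0.0128% of all genes called. With the other factor averaged, 0 of 8 were called for genotype, against 0.186% of all genes, and 0 of 8 for cold, against 0% of all genes. The interaction of genotype and cold also called 0 of 8 urea cycle genes and 0% of all genes. At an unadjusted p under 0.05, edgeR counted 1, 1, 1 and 0 urea cycle genes in the 4 comparisons of 2 groups, 1 for genotype, 2 for cold and 0 for the interaction. Of all genes, 10.7%, 14.9%, 7.25% and 6.09% were under it in the 4 comparisons of 2 groups, 13.8% for genotype, 9.48% for cold and 8.34% for the interaction. DESeq2 called 1 gene, Otc, for Sirt2-/- against Control, and limma voom with sample weights called 1, Slc25a15, for CE against Control. The background itself moved with the tool, since the 1 gene called among all genes for CE against Control became 180 with DESeq2 and 540 with limma voom, and the 139 for Sirt2-/- against Control became 608 and 906. At the background shares of edgeR, a count of 0 among 8 genes is no result about the urea cycle. The intervals below give the sizes of change that remained possible.

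**Figure D1:**
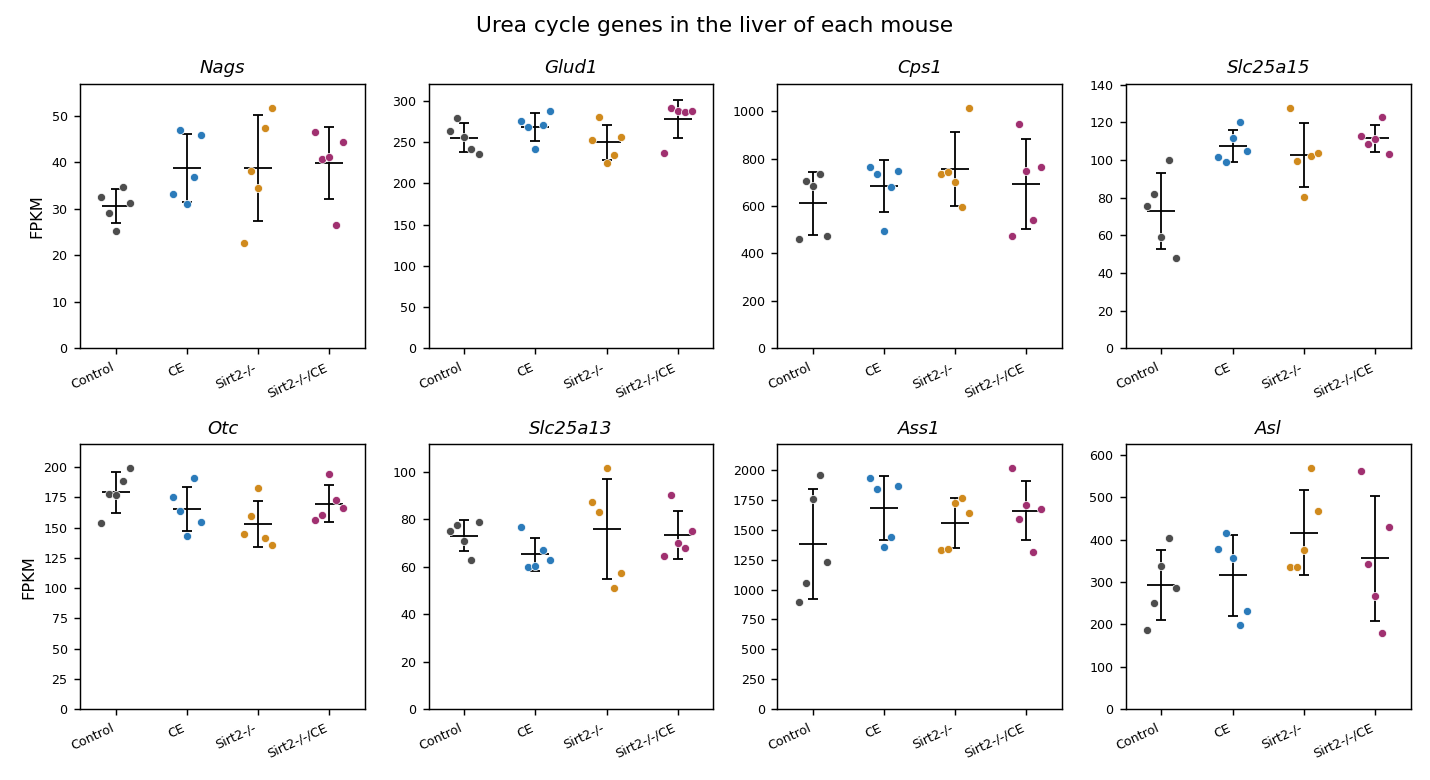
FPKM of the 8 urea cycle genes in every mouse, by group, with the mean and SD of each group (5 mice) in black and axes that start at 0. The 4 groups overlap for every gene. The 5 CE mice lie high for Slc25a15 (99.0 to 120.1 FPKM), and for Otc 3 of the 5 Sirt2-/- mice lie below every Control mouse.

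The ornithine carrier Slc25a15 had the lowest p of the 8 genes for CE against Control in edgeR's fit. It was at 75.5, 82.1, 58.9, 99.9 and 47.9 FPKM in the 5 Control mice and at 102, 99.0, 112, 120.1 and 105 FPKM in the 5 CE mice. The spread was thus narrower in the cold, where all mice lay between 99.0 and 120.1 FPKM, and the groups met only at Control replicate 4, the highest of its group. Slc25a15 was 1.49-fold higher in CE (95% interval 1.17 to 1.90), with an unadjusted p of 0.0027 and an adjusted p of 0.21 in edgeR's quasi-likelihood test, so the difference did not pass. By p it stood at place 201 of the 15616 genes, and 10.7% of all genes had an unadjusted p under 0.05 in this comparison. Without Control replicate 4 edgeR's adjusted p was 0.0437, and limma voom with sample quality weights gave 0.0346, so the call turned on these choices.

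In the knockouts, Slc25a15 was at 128, 99.6, 80.5, 102 and 104 FPKM without cold and at 113, 108, 111, 123 and 103 FPKM with it. Control was thus the group with the lowest levels of this carrier, and the other 3 groups had means of 107 ± 8.56 (CE), 103 ± 16.9 (Sirt2-/-) and 112 ± 7.17 FPKM (Sirt2-/-/CE), against 72.9 ± 20.3 in Control (SD, n = 5 each). For Sirt2-/- against Control the ratio of counts in the fit was 1.27 (95% interval 0.997 to 1.62, adjusted p = 0.342, edgeR's quasi-likelihood test), and the log2 fold change was 0.35, or 0.52 in log2 FPKM and 0.22 without Control replicate 5. Cold in the knockouts went with a log2 difference of 0.21 (95% interval -0.14 to 0.56), and the interaction was -0.37 (95% interval -0.86 to 0.13, adjusted p = 0.713, edgeR's quasi-likelihood test). Scaling by library size only gave 0.13 for the former and leaving out Sirt2-/- replicate 11 gave 0.31, and leaving out Control replicate 5 gave -0.24 for the latter. The effect of cold on Slc25a15 was therefore not shown to differ between the genotypes. Averaged over both genotypes, Slc25a15 was higher by 0.39 on the log2 scale (95% interval 0.14 to 0.64, unadjusted p = 0.00363 and adjusted p = 0.311 in edgeR's quasi-likelihood test), and all 10 cold mice lay above the mean of the 10 others. Here 9.48% of all genes had an unadjusted p under 0.05.

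Otc, which makes citrulline, had the lowest p of the 8 genes for Sirt2-/- against Control in edgeR's fit. In log2 FPKM, Slc25a15 and Asl differed more, each by 0.52. Its level was 154, 177, 177, 189 and 199 FPKM in Control and 144, 159, 183, 141 and 136 FPKM in Sirt2-/- mice. Sirt2-/- replicate 13, at 183 FPKM, lay within the Control range, and in CPM (counts relative to library size) the other 4 lay below every Control mouse. Otc was at 0.768 of its Control level in the knockouts (95% interval 0.643 to 0.917), with an unadjusted p of 0.00558 and an adjusted p of 0.135 in edgeR's quasi-likelihood test. The log2 fold change was -0.38 in this fit and -0.23 in log2 FPKM (adjusted p = 0.234, limma). The size of the difference thus depended on the values and the fit used, which changed together here. In this comparison 14.9% of all genes had an unadjusted p under 0.05, and Otc stood at place 647. The adjusted p was 0.0396 with DESeq2 and 0.0437 without Sirt2-/- replicate 13 in edgeR, so the call for Otc was not settled by these data.

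With cold, the ranges of the Otc values of the genotypes overlapped. CE mice had 175, 163, 143, 191 and 154 FPKM and Sirt2-/-/CE mice had 156, 160.2, 195, 173 and 166 FPKM, and the log2 difference was -0.04 (95% interval -0.29 to 0.22). The interaction for Otc was 0.34 (95% interval -0.02 to 0.70, unadjusted p = 0.0615 and adjusted p = 0.608, edgeR's quasi-likelihood test), the lowest p of the 8 genes in that test, in which 8.34% of all genes were under 0.05 unadjusted. Within the knockouts, Otc was higher with cold by 0.23 on the log2 scale, with an interval from -0.02 to 0.49. Averaged over both temperatures, the genotype difference for Otc was -0.21 (95% interval -0.39 to -0.03, unadjusted p = 0.0255 and adjusted p = 0.289, edgeR's quasi-likelihood test), where 13.8% of all genes were under 0.05 unadjusted. Scaled by library size only, that difference was -0.094 (adjusted p = 0.55, edgeR's quasi-likelihood test), and in log2 FPKM it was -0.096.

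Glud1, which frees ammonia from glutamate, had the tightest values of the 8 genes. It was at 253, 280.2, 224, 235 and 256 FPKM in Sirt2-/- mice and at 237, 292, 287, 286 and 288 FPKM in Sirt2-/-/CE mice. Of the latter, 4 lay above every Sirt2-/- mouse, and Sirt2-/-/CE replicate 16 lay among them in FPKM. The ratio was 1.18 (95% interval 1.02 to 1.36), with an unadjusted p of 0.0266 and an adjusted p of 0.625 in edgeR's quasi-likelihood test. The log2 fold change was 0.24 in this fit and 0.16 in log2 FPKM. For this comparison 7.25% of all genes had an unadjusted p under 0.05. In Sirt2-/- mice Glud1 was at 0.883 of its Control level (95% interval 0.765 to 1.02, unadjusted p = 0.0841 and adjusted p = 0.41 in edgeR's quasi-likelihood test), and in CPM 3 of the 5 lay below every Control mouse. That log2 difference, -0.18 in the fit, was -0.033 in log2 FPKM. In wild-type mice the cold groups were closer, with 263, 279, 256, 241 and 236 FPKM in Control and 276, 268, 241, 271 and 287 FPKM in CE, and over both genotypes Glud1 was higher by 0.16 on the log2 scale with cold (95% interval 0.02 to 0.31, adjusted p = 0.476, edgeR's quasi-likelihood test).

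**Figure D2:**
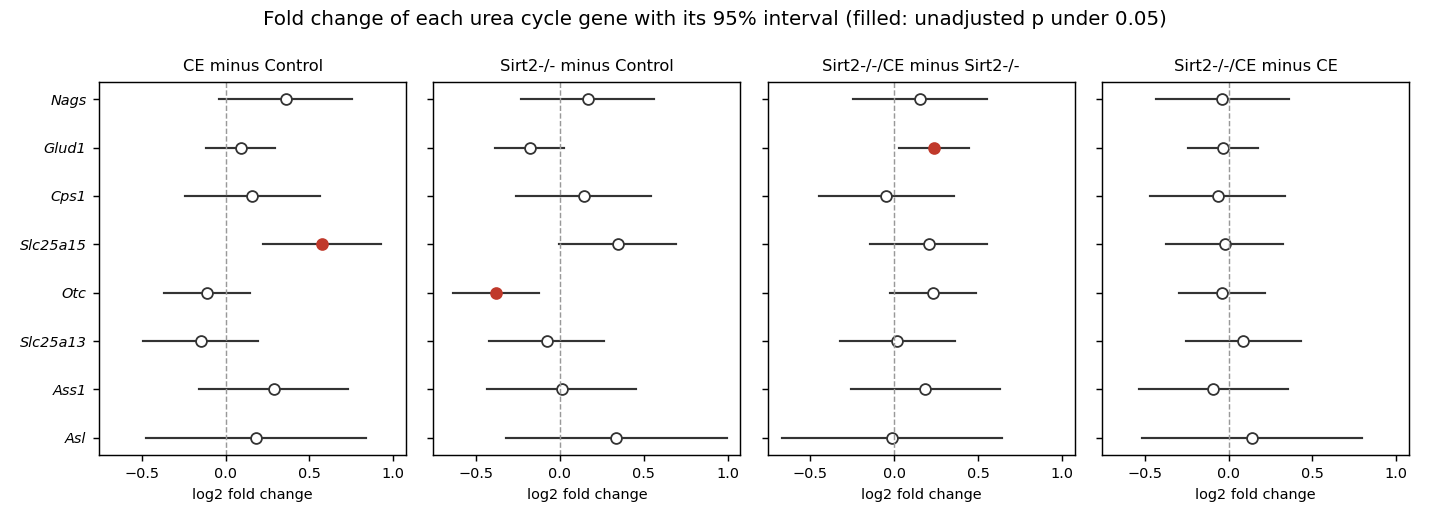
Log2 fold change of each urea cycle gene (points) with its 95% interval (lines) in the 4 comparisons of 2 groups, from edgeR's quasi-likelihood fit of all 20 mice. Filled points have an unadjusted p under 0.05, which are Slc25a15 for CE, Otc for Sirt2-/- and Glud1 for cold in the knockouts, and none passed the adjusted threshold. In the comparison of Sirt2-/-/CE with CE all points lie between -0.09 and 0.14.

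The activator enzyme and the entry enzyme gave wider intervals. Nags was at 32.6, 29.0, 25.2, 34.8 and 31.3 FPKM in Control and 33.1, 46.9, 31.0, 36.8 and 45.9 FPKM in CE mice, a ratio of 1.28 (95% interval 0.973 to 1.69). Cps1, the most abundant of the mitochondrial members, was at 461, 706, 683, 737 and 475 FPKM in Control and at 763, 736, 494, 679 and 748 FPKM in CE mice, a ratio of 1.12 (95% interval 0.846 to 1.47). Both sets overlapped broadly, and the log2 fold change of Cps1, 0.16, was 0.054 without Control replicate 1 and 0.31 with limma voom.

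Against Control, Sirt2-/- mice gave a ratio of 1.12 for Nags (95% interval 0.852 to 1.48) and of 1.103 for Cps1 (95% interval 0.836 to 1.46). On the log2 scale these were 0.17 and 0.14, and the former was 0.019 with limma voom and 0.32 with library size only, while the latter was 0.036 without Control replicate 1 and 0.31 in log2 FPKM. Nags ran from 22.7 to 51.7 FPKM among Sirt2-/- mice, so that the knockout group alone covered the whole range of the study for this gene. For Cps1 the highest level of the study, 1015 FPKM, was in Sirt2-/- replicate 15, and the lowest, 461 FPKM, was in Control replicate 1.

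Ass1, which works in the cytosol, was the most abundant of the 8 genes. It was at 897, 1052, 1759, 1959 and 1233 FPKM in Control, 1931, 1843, 1353, 1441 and 1863 in CE, 1329.7, 1335, 1727, 1762 and 1638 in Sirt2-/- and 2013, 1594, 1709, 1314 and 1676 FPKM in Sirt2-/-/CE mice. Control mice thus covered most of the range of the study by themselves. The log2 fold change of Ass1 was 0.29 for CE (95% interval -0.16 to 0.73) and 0.01 for Sirt2-/- against Control (95% interval -0.43 to 0.46), and the latter turned negative without Control replicate 1, 2 or 5 or Sirt2-/- replicate 13 or 14. The value for CE was 0.15 without Control replicate 1 and 0.62 with limma voom (adjusted p = 0.0653).

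Asl, the next enzyme, was at 186, 249.8, 338, 403 and 285 FPKM in Control and at 336, 336, 374, 568 and 468 FPKM in Sirt2-/- mice, with a log2 fold change of 0.34 (95% interval -0.32 to 0.99). All 5 knockouts lay above the Control mean, but the interval was the widest of the 8 genes, and the value was 0.18 without Sirt2-/- replicate 14 and 0.52 in log2 FPKM. In CE mice Asl was at 378, 415, 357, 197 and 232 FPKM, and in Sirt2-/-/CE mice, where it spread most, at 561, 342, 267, 179 and 430.0 FPKM. The log2 fold change was 0.18 for CE against Control, or 0.055 without Control replicate 1 and 0.36 with limma voom, and 0.14 for Sirt2-/-/CE against CE (95% interval -0.52 to 0.80), which was -0.34 with limma voom and sample weights.

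The carrier Slc25a13 was at 75.0, 77.7, 71.0, 63.0 and 78.7 FPKM in Control, 76.6, 59.7, 60.2, 66.8 and 62.7 in CE, 87.1, 82.9, 101, 50.8 and 57.4 in Sirt2-/- and 64.3, 90.1, 69.9, 67.9 and 75.1 FPKM in Sirt2-/-/CE mice. Its log2 fold change was -0.15 for CE (95% interval -0.49 to 0.20) and -0.08 for Sirt2-/- against Control (95% interval -0.42 to 0.26), and the latter was 0.05 when libraries were scaled by their total only.

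Between Sirt2-/-/CE and CE mice the urea cycle genes were closest. All 8 log2 fold changes lay between -0.09 for Ass1 and 0.14 for Asl, and the lowest unadjusted p was 0.598, for Slc25a13 (log2 fold change 0.09, adjusted p = 0.971, edgeR's quasi-likelihood test), where 6.09% of all genes were under 0.05. For Glud1 the 95% interval of the ratio was 0.847 to 1.13 and for Asl it was 0.699 to 1.74, so the data bound a change far better for Glud1 than for Asl. The value for Slc25a13 was 0.013 without Sirt2-/-/CE replicate 17 and 0.18 with library size only, and that for Ass1 was -0.0098 without Sirt2-/-/CE replicate 19 and -0.26 with limma voom. The sign of these small values was not stable, since 6 of the 8 changed it under at least 1 alternative of the processing.

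The medians of the urea cycle genes were small in each comparison. They were 0.17 on the log2 scale for CE against Control, 0.08 for Sirt2-/- against Control, 0.17 for cold in the knockouts and -0.03 for Sirt2-/-/CE against CE. Over all genes tested the medians were -0.01, 0.02, 0.01 and 0.02. Of the 8 urea cycle genes, 6 were higher and 2 lower for CE against Control and for cold in the knockouts, 5 were higher and 3 lower for Sirt2-/- against Control, and 2 were higher and 6 lower for Sirt2-/-/CE against CE. The last count turned with the scaling, to 7 higher and 1 lower with library size only, 6 and 2 in log2 FPKM and 4 and 4 with upper-quartile scaling, so no direction is read from it. No urea cycle gene had groups without overlap, against 3.04%, 3.61%, 0.743% and 1.22% of all genes in the same order of comparisons. Comparisons that share a group are not independent of each other.

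How much mice of 1 group differed depended on the gene. The within-group SD was 0.54 log2 units for Asl, 0.34 for Ass1, 0.32 for Nags, 0.30 for Cps1, 0.26 for Slc25a15 and for Slc25a13, 0.16 for Otc and 0.089 for Glud1. Among the 1436 genes at least as abundant as Nags, the median SD was 0.31, and 86.2% of these genes, Asl included, had an SD no higher than that of Asl. Counted in the same way, with the gene itself included, the share was only 7.17% for Otc and 0.348% for Glud1. Glud1 and Otc thus allowed smaller differences to be resolved than Asl did, and in FPKM the highest mouse exceeded the lowest 1.30-fold for Glud1, 1.47-fold for Otc and 3.16-fold for Asl.

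**Figure D3:**
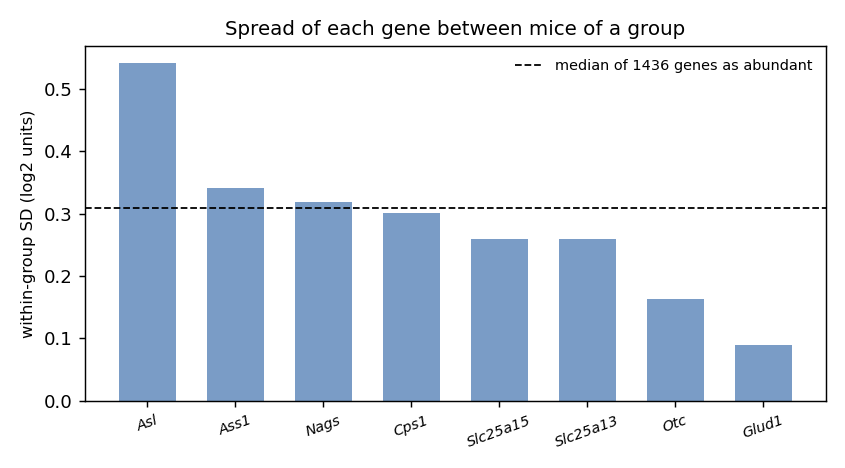
Within-group SD of each urea cycle gene in log2 units (bars, from 0), pooled over the 4 groups, with the median of the 1436 genes at least as abundant as Nags (dashed line). Asl has the highest bar, at 0.54, and Otc and Glud1 have the lowest, at 0.16 and 0.089.

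How far the genes varied together from mouse to mouse was described by their correlations. Of the 28 pairs, 19 had a positive Pearson r over the 20 mice in log2 CPM, and the median r was 0.168, against 0.172 for pairs of genes at least as abundant as Nags. Ass1 and Asl, which act one after the other, had the highest r, 0.651, and Spearman rho = 0.653 (permutation p adjusted over 28 pairs 0.0538 and 0.0762), and r was 0.552 without the 2 mice farthest from the median. After each group's mean was subtracted, r was 0.72 for this pair (adjusted permutation p = 0.00756), the only 1 of the 28 pairs that passed, and it passed only in this form. Of all pairs of genes this abundant, 12.6% had an r over the 20 mice at least as high.

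Nags with Ass1 followed, with r = 0.527 and rho = 0.609 (adjusted permutation p = 0.234 and 0.0788). The lowest r was that of Nags with Slc25a13, -0.465 (rho = -0.546, adjusted permutation p = 0.27 and 0.125). For Slc25a15 and Otc, the genes with the lowest p for cold and for genotype, r was -0.225 (rho = -0.182, adjusted permutation p = 0.622 and 0.70).

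**Figure D4:**
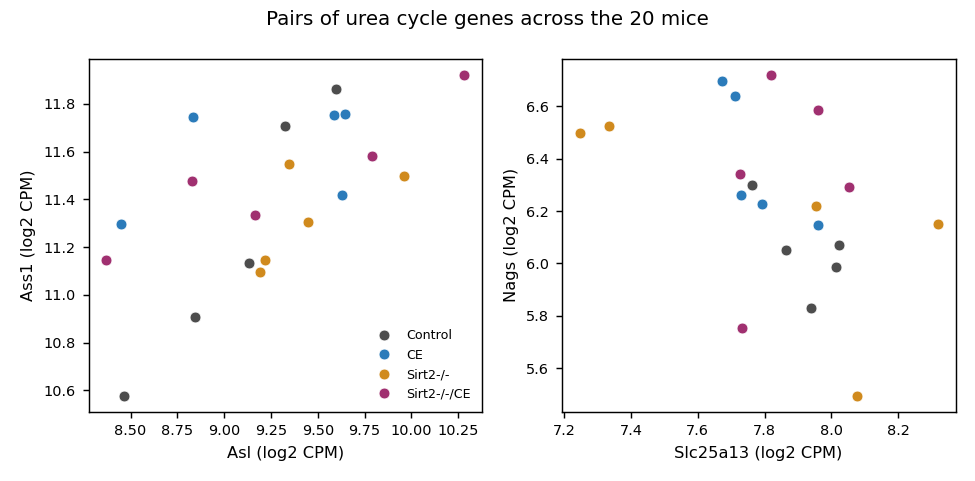
Log2 CPM of Asl with Ass1 and of Slc25a13 with Nags, 1 point per mouse and coloured by group. The first pair has the highest r of the 28 pairs across the 20 mice (0.651) and the second pair the lowest (-0.465), and neither passed the test over all mice.

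The mean profile of the 8 genes was compared with 10583 genes over the 20 mice, as a description. Gm5424, the copy of Ass1, was most like it (r = 0.859), followed by Tango2 (0.811), Zcchc10 (0.806), Nnmt, which methylates nicotinamide (0.802), and Klc4, a kinesin light chain (0.802). Among the members, Ass1 was closest to the profile it forms part of (r = 0.882) and Slc25a13 farthest from it (r = 0.00375). Nnmt ran from 50.7 to 174 FPKM in Control mice and from 82.5 to 496 FPKM in Sirt2-/-/CE mice.

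A list of 30 neighbours of the cycle covered mainly the metabolism and transport of glutamine, glutamate, proline, ornithine and creatine, and 27 of them were tested. The list also held the sirtuins Sirt3 and Sirt5, a carbonic anhydrase and an ammonia transporter. In Sirt2-/- against Control, 2 of the 27 were called, both lower, against 0.89% of all genes called in either direction, and in every other comparison 0 of 27 were called. Slc38a3, a glutamine transporter, was at 757, 732, 1007, 534 and 589 FPKM in Control and at 459, 369, 506, 264 and 280.3 FPKM in Sirt2-/- mice, with no overlap. Its ratio was 0.479 (95% interval 0.354 to 0.647, adjusted p = 0.0335, edgeR's quasi-likelihood test). Gamt, which uses guanidinoacetate from arginine to make creatine, was at 189, 157, 175, 135 and 154 FPKM in Control and at 80.3, 66.4, 78.1, 40.2 and 33.0 FPKM in Sirt2-/- mice, also with no overlap, a ratio of 0.336 (95% interval 0.213 to 0.532, adjusted p = 0.034, edgeR's quasi-likelihood test).

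Both calls were close to the threshold in edgeR, while DESeq2 gave an adjusted p of 0.000254 for each. In edgeR, Gamt was no longer called without Control replicate 1, 2, 3 or 5 or without Sirt2-/- replicate 12, 14 or 15, with adjusted p up to 0.104, and Slc38a3 without the same mice other than Control replicate 5, with adjusted p up to 0.103, and in a fit of only the 2 groups (0.106). Neither lost its direction. CE mice had 444, 386, 379, 335 and 481 FPKM of Slc38a3 and 90.5, 95.1, 57.7, 66.8 and 112 FPKM of Gamt, below every Control mouse, with log2 fold changes of -0.79 and -0.92 that did not pass (adjusted p = 0.191 and 0.279, edgeR's quasi-likelihood test). These calls turned on the tool, since Slc38a3 passed with DESeq2 (adjusted p = 0.0306) and with limma voom (0.0173) and Gamt with limma voom (0.0377). In Sirt2-/-/CE mice Slc38a3 was at 326, 402, 436, 309 and 419 FPKM and Gamt at 178, 102, 67.3, 68.8 and 174 FPKM, and the interaction for Gamt was 2.01 on the log2 scale (adjusted p = 0.208, edgeR's quasi-likelihood test). It passed with DESeq2 (adjusted p = 0.00837) and was 1.30 with limma voom. For Slc38a3 the interaction was 0.87 (adjusted p = 0.45, edgeR's quasi-likelihood test).

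**Figure D5:**
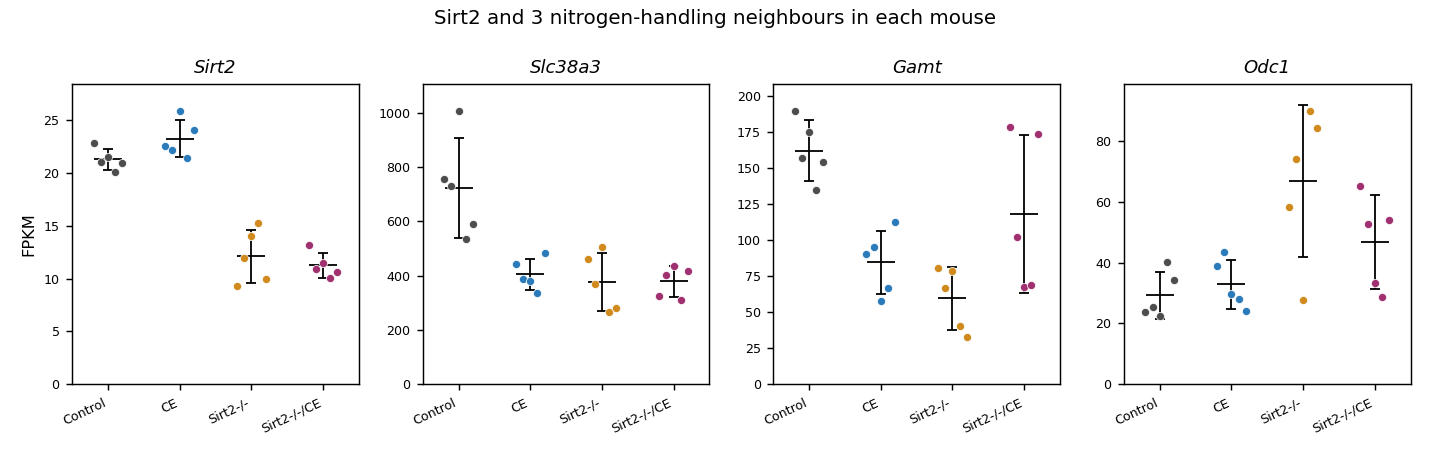
FPKM of Sirt2, Slc38a3, Gamt and Odc1 in every mouse by group, with mean and SD (5 mice per group) in black and axes that start at 0. Slc38a3 and Gamt are lower in all 5 Sirt2-/- and all 5 CE mice than in any Control mouse, and 2 Sirt2-/-/CE mice have Gamt at the Control level.

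The other neighbours named by rank of p did not pass in edgeR. Odc1, which turns ornithine into putrescine, was at 23.9, 25.4, 22.3, 40.1 and 34.4 FPKM in Control and at 58.5, 74.0, 27.8, 90.0 and 84.5 FPKM in Sirt2-/- mice, with a log2 fold change of 1.03 (adjusted p = 0.0852, edgeR's quasi-likelihood test). Odc1 passed with DESeq2 (adjusted p = 0.0221), limma voom (0.0139), limma on log2 FPKM (0.0491), edgeR with library size only (0.0357) and edgeR without Sirt2-/- replicate 13 (0.0216), so its call also turned on these choices. Slc1a2, a glutamate transporter of hepatocytes near the central vein, was at 35.3, 32.7, 36.7, 32.7 and 44.4 FPKM in CE and 24.7, 31.9, 26.6, 19.2 and 22.6 FPKM in Sirt2-/-/CE mice, with a log2 fold change of -0.66 (adjusted p = 0.426, edgeR's quasi-likelihood test). Odc1 lay above every Control mouse in 4 of 5 Sirt2-/- mice, and Slc1a2 lay below every CE mouse in all 5 Sirt2-/-/CE mice.

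Regulators of the urea cycle genes were a list of 12, among them the glucagon receptor Gcgr, the glucocorticoid receptor Nr3c1 and the factors Cebpa, Cebpb and Hnf4a. None of the 12 was called in any of the 7 comparisons by edgeR's quasi-likelihood test, and 1 had an unadjusted p under 0.05, Foxo1, in CE against Control, where 10.7% of all genes did. Foxo1 was at 3.38, 3.42, 3.43, 2.55 and 3.05 FPKM in Control and at 5.15, 3.402, 7.12, 4.95 and 2.64 FPKM in CE mice, a log2 fold change of 0.59 (unadjusted p = 0.0318, adjusted p = 0.416), which was 0.33 without CE replicate 8. Ppargc1a, Nr3c1 and Cebpb followed with lowest unadjusted p of 0.0836, 0.0905 and 0.0992 over the 4 comparisons of 2 groups. None of 8 periportal genes, 10 pericentral genes and 6 genes of the fasting response was called in any comparison by edgeR's quasi-likelihood test. The unadjusted p was under 0.05 for 0, 2 and 0 of them in CE against Control, against 10.7% of all genes, and for 1, 1 and 0 in Sirt2-/- against Control, against 14.9%. Of the 10 pericentral genes, 8 were higher in CE than in Control (median log2 fold change 0.30, both genes under 0.05 higher), and 5 were higher and 5 lower in Sirt2-/- mice (median -0.10). In Sirt2-/-/CE against CE, 9 of the 10 pericentral genes were lower, 3 of them with an unadjusted p under 0.05, against 6.09% of all genes, and 2 had no overlap, against 1.22%. Their median log2 fold change there was -0.37, against 0.02 for all genes, and Slc1a2 is among these 10 genes. In the same comparison, 5 of the 8 periportal genes (median -0.17) and 10 of the 12 regulators (median -0.10) were lower too. This comparison shares the CE group with that of CE against Control. With both temperatures averaged, 3 of the 10 pericentral genes and 2 of the 8 periportal genes were under 0.05 for genotype, all lower, against 13.8% of all genes. Whatever their p, 8 of the 10 pericentral genes (median -0.22) and 7 of the 8 periportal genes (median -0.20) were lower for genotype, against a median of 0.02 for all genes.

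Genes of the circadian clock had larger fold changes than the urea cycle genes. None of 8 was called, but 3 of 8 had no overlap between CE and Control, against 3.04% of all genes, and the median of the absolute log2 fold change was 1.16, against 0.17 for the urea cycle genes and 0.22 for all genes. In Sirt2-/- against Control it was 1.06, against 0.17 for the urea cycle genes and 0.26 for all genes. Arntl was higher by 3.06 on the log2 scale in CE and by 3.25 in Sirt2-/- against Control (adjusted p = 0.202 and 0.0769, edgeR's quasi-likelihood test). These are the comparisons in which Slc25a15, Otc, Slc38a3 and Gamt had their lowest p, and the part of the clock in those values was not tested. Whether livers were taken at 1 time of day is not given in the sources used here.

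Sequence upstream of the start is shown for Otc and Slc25a15, the genes with the lowest p for genotype and for cold, from RefSeq annotation on GRCm38.p6. Promoters were found for 6 of the 8 genes, and those of Cps1 and Asl are not shown. The 250 bases before the start of Otc lie at chrX:10252055-10252304 on the forward strand, with matches to TTNNGNAA, the pattern of a C/EBP site, in capitals. The 250 bases before the start of Slc25a15, the outer 1 of 2 starts in RefSeq, lie at chr8:22398622-22398871 on the reverse strand and are written 5′ to 3′, with GGGCGG, a GC box, in capitals.
Otc: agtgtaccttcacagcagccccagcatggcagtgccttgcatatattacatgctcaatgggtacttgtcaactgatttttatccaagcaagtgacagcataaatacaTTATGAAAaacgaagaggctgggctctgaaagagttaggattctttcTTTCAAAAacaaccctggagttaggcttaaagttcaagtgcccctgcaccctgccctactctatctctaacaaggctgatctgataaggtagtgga
Slc25a15: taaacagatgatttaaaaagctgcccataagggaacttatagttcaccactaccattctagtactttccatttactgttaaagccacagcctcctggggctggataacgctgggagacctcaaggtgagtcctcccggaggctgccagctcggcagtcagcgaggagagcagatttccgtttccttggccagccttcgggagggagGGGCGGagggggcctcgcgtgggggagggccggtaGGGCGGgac
Both strands were searched for TATAAA of the TATA box, for CCAAT of the CCAAT box, for GGGCGG of the GC box, for TGACG of the cAMP response element and for TTNNGNAA, none of which overlap another here. In Otc the matches to TTNNGNAA start 143 and 96 bases before the start, and 36.8% of 32851 promoters of this length held that pattern. In Slc25a15 GGGCGG starts 44 and 9 bases before the start, and 32.7% of promoters held it. No other pattern of the 5 was matched in either window. A match to a short pattern is a description of the letters and not a site of binding.

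The positions of the 8 genes are those of the GENCODE vM21 annotation on GRCm38. Nags lies at chr11:102145513-102149477, Cps1 at chr1:67123026-67231259, Otc at chrX:10252305-10321024, Ass1 at chr2:31470207-31520672 and Glud1 at chr14:34310727-34345265, all on the forward strand. Asl lies at chr5:130011258-130029247, Slc25a15 at chr8:22375551-22398597 and Slc25a13 at chr6:6041218-6217173, all on the reverse strand. All are protein-coding, and the main transcripts run from 7 exons in Nags and Slc25a15 to 38 exons in Cps1. Values were summed over the whole gene, so that transcripts of 1 gene were not told apart.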

How the data were processed

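Liver RNA-seq of 20 mice was used, with groups taken from the labels. The authors deposited 1 table with raw read counts per gene and with FPKM values, which are scaled to gene length and depth. The submitters' processing notes name mm10; the aligner, the counting tool and its use of strand are not given in the sources used here. A further 9 lines that name no gene were dropped.

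Counts were fitted with edgeR 4.0.16 in R 4.3.3 with TMM scaling, filterByExpr (minimum count 10, total 15), all 20 libraries and group as the only term, and p-values were adjusted by Benjamini-Hochberg. Nothing in the labels pairs mice, whose numbers run from 1 to 20, and p-values measure the spread between these mice. Correlations used log2 CPM with a prior count of 2 and 1e+05 permutations. The alternatives were DESeq2 1.42.0, limma 3.58.1 (voom with sample weights, and log2 of FPKM plus 1), 2 other scalings, 2 other filters, 2-group fits and the removal of each mouse. Copies were searched with BLAST+ 2.17.0. Figures used matplotlib 3.10.9.

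The members and lists were chosen with earlier results of these data known. Of the 9 members, 1 is not reported here. Named genes were the other 8 members, Sirt2, and, of the neighbours and regulators, those called and the 4 with the lowest p, and the 5 genes most like the members' mean profile. Arntl was named after its values were seen, and other regulators and neighbours are named only as examples of their list.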

Additional observations from a re-analysis of the deposited data

How the results depend on the processing

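With 29 other settings, 4 of 1600 refitted fold changes of urea cycle genes passed the test. They are Otc for Sirt2-/- against Control with DESeq2, Slc25a15 for CE against Control with limma voom, and the same genes once each when a mouse was left out, so that these comparisons held 1 called gene there and 0 to 1 over the removals of a mouse. In the other comparisons the count was 0 in every setting. The cause of these changes was not tested, and a single mouse or tool decides both calls, which limits what 5 mice per group can settle.

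Signs were unstable where differences were near 0. For Sirt2-/-/CE against CE, Slc25a15 was 0.012 with upper-quartile scaling, 0.069 with library size only and 0.057 in log2 FPKM, Otc was 0.051 and 0.041 and Nags 0.043 and 0.033 in the last 2, Glud1 was 0.0035, 0.062 and 0.048 in the 3, and Cps1 was 0.032 with library size only, while Asl was -0.34 with limma voom. For Sirt2-/- against Control, Slc25a13 was 0.052 with library size only, 0.012 with limma voom and 0.012 in log2 FPKM. For Sirt2-/- against Control, leaving out a mouse gave -0.13 to 0.18 for Ass1 and -0.23 to 0.039 for Slc25a13. For Sirt2-/-/CE against CE it gave -0.068 to 0.029 for Slc25a15 and -0.18 to 0.32 for Asl. The signs of 8 of 8 genes for CE and 6 of 8 for Sirt2-/- against Control held in every setting.

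Scaling by library size only moved the median of all genes from 0.02 to 0.16 for Sirt2-/- against Control and from 0.02 to 0.11 for Sirt2-/-/CE against CE. Over all genes, the settings called 0 to 540 for CE against Control (1 in edgeR as reported, 68 without Control replicate 4), 0 to 31 for Sirt2-/-/CE against CE (2), 0 to 7 for cold in the knockouts (0), 10 to 319 for genotype (29, and 117 without Sirt2-/- replicate 13), 0 to 75 for cold (0) and 0 to 42 for the interaction (0), and 139 were called for Sirt2-/- against Control, with 5 without Control replicate 2 or without Sirt2-/- replicate 14, 29 in a fit of only these groups, 608 with DESeq2 and 906 with limma voom. No paired analysis was possible because the labels number the mice from 1 to 20 and share no number between groups.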
